A study of Homo sapiens with 6 samples.

Results

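The urokinase plasminogen activation system was examined in TE-1 cells, a human oesophageal squamous cell carcinoma line, with and without a stable knockdown of EIF3C. The system was taken as 8 genes chosen by name for their roles: the activators PLAU and PLAT, the receptor PLAUR, the inhibitors SERPINE2 and SERPINB2, and the plasminogen receptors ANXA2, S100A10 and PLGRKT. Of these, 7 had at least 1 probe set named for that gene alone, 30 probe sets in all, among 18132 genes measured in that way, and SERPINB2 was not analysed here. Each gene was represented by its probe set with the highest mean signal over the 6 arrays. The genes were proposed when earlier results of these arrays were known, so their differences describe these arrays and are not independent evidence.

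The EIF3C knockdown group held 3 arrays of RNA from a stable knockdown clone, and the control group held 3 arrays of RNA from the parental cells. The 3 knockdown samples share 1 clone, and the labels mention neither a second clone nor cells carrying a control construct. The samples are called biological replicates without word of separate cultures, so p-values cover only the spread among these arrays, which could be technical. No other agent is named, and both groups were grown in RPMI-1640 with foetal bovine serum.

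Plasminogen is a circulating proenzyme that plasminogen activators cut into plasmin, a protease that degrades fibrin and matrix proteins. Urokinase, the product of PLAU, works at the cell surface when bound to its receptor, while serpins block the activators and proteins with a free terminal lysine hold plasminogen beside them. The system is well known from wound repair and from the invasive edge of carcinomas, squamous carcinomas included.

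The start regions of 4 genes are shown because they set genes that rose, PLAU and PLAUR, beside genes that fell, ANXA2 and S100A10. The sequences are from RefSeq on GRCh38.p14 and cover the 250 bases before an annotated start, with positions counted back from the start. Promoter windows were matched for 6 of the 7 genes. Capitals mark TGANTCA, the letters recognised by AP-1 (FOS and JUN family) dimers and the same on both strands, and GGGCGG, a GC box of Sp1-type factors, or its reverse complement CCGCCC. Overlapping GC boxes were counted separately.
PLAU, first start, chr10:73910360-73910609, plus strand: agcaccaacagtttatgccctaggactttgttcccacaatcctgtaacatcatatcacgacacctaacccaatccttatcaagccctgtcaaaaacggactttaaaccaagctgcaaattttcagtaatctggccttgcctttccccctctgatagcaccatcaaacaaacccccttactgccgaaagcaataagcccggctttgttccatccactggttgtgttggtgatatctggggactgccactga
PLAU, second start, chr10:73910882-73911131, plus strand: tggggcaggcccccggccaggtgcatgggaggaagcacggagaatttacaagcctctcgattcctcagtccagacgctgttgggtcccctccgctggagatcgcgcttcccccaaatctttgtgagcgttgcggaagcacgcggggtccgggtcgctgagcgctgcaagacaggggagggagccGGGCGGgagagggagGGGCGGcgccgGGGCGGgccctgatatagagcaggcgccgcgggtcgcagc
PLAUR, chr19:43670170-43670419, minus strand: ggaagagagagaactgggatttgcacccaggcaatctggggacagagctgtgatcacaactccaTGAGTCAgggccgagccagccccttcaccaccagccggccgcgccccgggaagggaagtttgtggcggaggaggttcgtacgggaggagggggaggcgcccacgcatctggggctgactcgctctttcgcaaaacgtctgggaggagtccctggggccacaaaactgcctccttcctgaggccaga
ANXA2, chr15:60397987-60398236, minus strand: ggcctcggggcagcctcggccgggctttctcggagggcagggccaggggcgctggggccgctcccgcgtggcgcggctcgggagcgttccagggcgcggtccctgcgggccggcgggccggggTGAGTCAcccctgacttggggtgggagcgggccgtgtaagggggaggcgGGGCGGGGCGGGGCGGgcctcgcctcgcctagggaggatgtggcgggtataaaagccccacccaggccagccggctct
S100A10, chr1:151993860-151994109, minus strand: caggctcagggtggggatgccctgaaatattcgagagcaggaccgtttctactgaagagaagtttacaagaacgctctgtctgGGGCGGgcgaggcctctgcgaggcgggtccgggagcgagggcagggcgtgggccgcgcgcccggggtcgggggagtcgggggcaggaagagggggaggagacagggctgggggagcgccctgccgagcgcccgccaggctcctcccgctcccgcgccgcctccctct
TGAGTCA stood at -186 in PLAUR, which rose, and at -127 in ANXA2, which fell. Neither PLAU window nor that of S100A10 held TGANTCA, which 6.57% of 35116 windows of the same length held. GC boxes were matched 3 times in the second PLAU window, 3 times in ANXA2, 1 time in S100A10 and not in PLAUR, and 42.6% of windows held at least 1. Among the 4 genes shown, each motif was matched in a gene that rose and in a gene that fell. SERPINE2, which fell and is not shown, held GC boxes in both of its windows and no TGANTCA. PLGRKT, slightly higher and also not shown, held neither motif. Sequence outside these windows was not searched, and the part of either motif in the changes was not tested.

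The deposited values were log2 signals, with array medians between 6.09 and 6.11. Arrays of the same group correlated at 0.9977 to 0.9985 over all probe sets, and arrays of different groups at 0.9824 to 0.9846. The targeted gene was lower in every knockdown sample: its 3 bright probe sets lay between 7.94 and 8.49 in knockdown and between 10.23 and 10.69 in control, and 21.5% to 22.6% of the control signal was left. They are shared with EIF3CL, a near-identical gene. Of the squamous and epithelial markers, KRT8 averaged 13.28 in knockdown and 13.03 in control, and EPCAM 12.10 in knockdown and 11.89 in control. CDH1 and KRT18 were also called higher, and SOX2, at 5.52 in knockdown and 5.77 in control, was the 1 called lower. KRT6A, KRT17 and TP63, also squamous markers, had no probe set named for that gene alone and were not analysed here. The basal squamous keratins KRT5, at 6.09 in knockdown and 5.91 in control, and KRT14, at 5.67 in knockdown and 5.85 in control, were dim in both groups, below the median of 7.61 over all tested genes. Of fibroblast markers 2 of 6 lay above the filter on low values, of endothelial markers 4 of 5 and of leukocyte markers 3 of 6. Their summed linear signals were 159 to 177 in knockdown and 157 to 176 in control for fibroblasts, 228 to 232 in knockdown and 211 to 227 in control for endothelium, and 177 to 179 in knockdown and 180 to 206 in control for leukocytes. Of these markers CDH5, an endothelial cadherin, was called higher, at 6.31 in knockdown and 5.84 in control, and KDR and COL1A1 were called lower. The part of these signals in the results was not tested.

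EIF3C knockdown cells had far more PLAU transcript, somewhat more PLAUR, and less SERPINE2, ANXA2 and S100A10. The receptor and the activator thus both rose, while an inhibitor and the paired plasminogen receptor subunits fell. PLGRKT was slightly higher and PLAT did not pass on its chosen probe set. All 7 genes with a probe set passed the filter, and 6 of them passed the threshold, an adjusted p under 0.05 in limma fitted across 13599 genes with Benjamini-Hochberg adjustment. Among all genes tested 66.5% did so, 32.4% higher and 34.1% lower in knockdown, so a count of 3 higher and 3 lower genes of 7 is near that background. The median change was 0.07 on the log2 scale for the 7 genes and -0.03 for all genes. Groups did not overlap for 6 of the 7 genes, against 70.3% of all genes. In bulk RNA, fewer cells with a transcript and less of it per cell cannot be told apart.

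**Figure D1:**
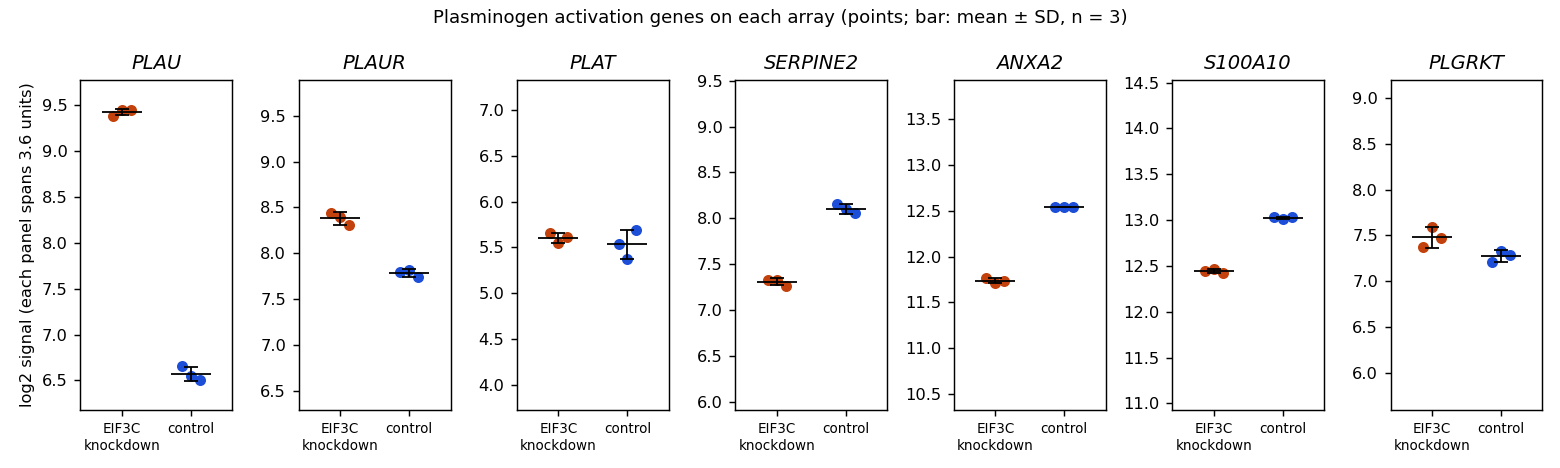
Log2 signal of the 7 genes on each array, with EIF3C knockdown on the left and control on the right of every panel; points are arrays and bars are the mean ± SD (n = 3 each). PLAU stands at 9.39 to 9.45 in knockdown and 6.51 to 6.66 in control, and the PLAT groups overlap.

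PLAU encodes urokinase, the serine protease that activates plasminogen at the cell surface. Its log2 signal was 9.39, 9.45 and 9.45 in the knockdown samples, against 6.66, 6.55 and 6.51 in the control samples. Every knockdown sample lay far above every control sample. The means were 9.43 ± 0.04 in knockdown and 6.57 ± 0.08 in control (SD, n = 3 each), a difference of 2.86 (95% interval 2.76 to 2.96) or 7.26-fold. In the fit over all genes, limma gave an adjusted p of 4.97e-17. Counting PLAU itself, 7 of the 13599 genes, or 0.051%, changed by as much in either direction, and PLAU had rank 5 among the rises.

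All 3 PLAU probe sets rose. The second averaged 8.56 in knockdown and 5.74 in control, a difference of 2.82. The third averaged 7.14 in knockdown and 4.57 in control, and its difference of 2.57 is less certain because its control mean lay below 4.635, the lowest gene mean kept by the filter. The groups did not overlap on any of the 3 probe sets.

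PLAUR encodes the urokinase receptor, a protein held to the outer membrane by a lipid anchor. Its log2 signal was 8.44, 8.39 and 8.31 in knockdown, against 7.79, 7.82 and 7.74 in control. The groups did not overlap, and the means differed by 0.60 (95% interval 0.50 to 0.70), or 1.51-fold (limma, adjusted p = 5.78e-09). All 5 PLAUR probe sets were called higher, by 0.47 to 0.64.

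The gap between the activator and its receptor was compared within each array. PLAU minus PLAUR was 0.94, 1.06 and 1.14 log2 units in the knockdown samples, against -1.14, -1.27 and -1.24 in the control samples. PLAU therefore rose by 2.26 more than PLAUR, with no overlap between the groups. The two-sided exact permutation test over samples gave p = 0.1, the smallest that 3 arrays against 3 allow, so it cannot reach 0.05. The size of the gap within a group has no meaning of its own, since it compares different probes.

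PLAT encodes tissue plasminogen activator, best known from clot lysis in blood vessels. Its signal was 5.66, 5.55 and 5.61 in knockdown, against 5.54, 5.37 and 5.69 in control. The groups overlapped and the difference of 0.07 did not pass (95% interval -0.11 to 0.26, limma adjusted p = 0.48). Of the other 6 probe sets, 2 dimmer ones were called higher. They stood at 5.05 in knockdown and 4.63 in control, and at 4.31 in knockdown and 3.77 in control, differences of 0.42 and 0.54. With the mean of all 7 probe sets in place of the brightest, PLAT was called higher, by 0.22 (adjusted p = 0.00795), and without control replicate 2 the difference turned to -0.0065 and was not called.

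SERPINE2 encodes protease nexin-1, a serpin that inhibits urokinase, tissue plasminogen activator, plasmin and thrombin. Its signal was 7.33, 7.33 and 7.26 in knockdown, against 8.16, 8.10 and 8.05 in control. Each knockdown sample lay below each control sample. The difference was -0.80 (95% interval -0.90 to -0.69), which left 57.6% of the control signal (limma, adjusted p = 2.32e-10). Of 6 probe sets 5 were called lower, and they differed in size: the chosen one had the largest fall, the next 3 by signal ran from -0.45 to -0.38, and the 2 dimmest stood at -0.16 and -0.30. With the mean of the 6 probe sets the difference was -0.42.

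ANXA2 and S100A10 encode the subunits of the annexin A2 heterotetramer, in which S100A10 carries the terminal lysine that binds plasminogen. ANXA2 had 11.77, 11.71 and 11.73 in knockdown, against 12.54, 12.54 and 12.54 in control. S100A10 had 12.44, 12.47 and 12.43 in knockdown, against 13.03, 13.01 and 13.03 in control. Both genes were bright and differed little between arrays of a group, with no overlap between groups. ANXA2 fell by 0.80 on the log2 scale (95% interval -0.84 to -0.76), which left 57.3% of the control signal (limma, adjusted p = 2.24e-15). S100A10 fell by 0.58 (95% interval -0.62 to -0.54), which left 66.9% (limma, adjusted p = 3.21e-14).

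All 6 ANXA2 probe sets were called lower, by -0.97 to -0.66, and both S100A10 probe sets, by -0.58 and -0.57. The chosen ANXA2 probe set has an identifier ending in _x_at, which on this array type marks probes that may also match other sequences, and ANXA2 has near-identical pseudogene copies. A probe set named for the pseudogene ANXA2P2 averaged 11.58 in knockdown and 12.29 in control, so gene and copy cannot be told apart there. The largest fall of the 6 was on an _s_at probe set, an ending that also marks shared probes, with 11.18 in knockdown and 12.15 in control. The only ANXA2 probe set ending in _a_at was dim, with 5.67 in knockdown and 6.37 in control, a difference of -0.70. Within arrays, ANXA2 minus S100A10 was -0.67, -0.75 and -0.69 in knockdown, against -0.49, -0.47 and -0.50 in control. ANXA2 thus fell by 0.22 more than S100A10, again with the smallest p the exact two-sided permutation test allows, 0.1.

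PLGRKT encodes a membrane protein that also binds plasminogen through a terminal lysine. Its only probe set had 7.37, 7.59 and 7.48 in knockdown, against 7.21, 7.33 and 7.29 in control. The groups did not overlap, but the lowest knockdown sample stood just above the highest control sample. The difference was 0.20 (95% interval 0.07 to 0.33, limma adjusted p = 0.00849). It was no larger than the largest difference of the 85 non-human control probe sets, which ran from -0.22 to 0.20. Without knockdown replicate 2 it was 0.14 and not called (adjusted p = 0.0657).

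**Figure D2:**
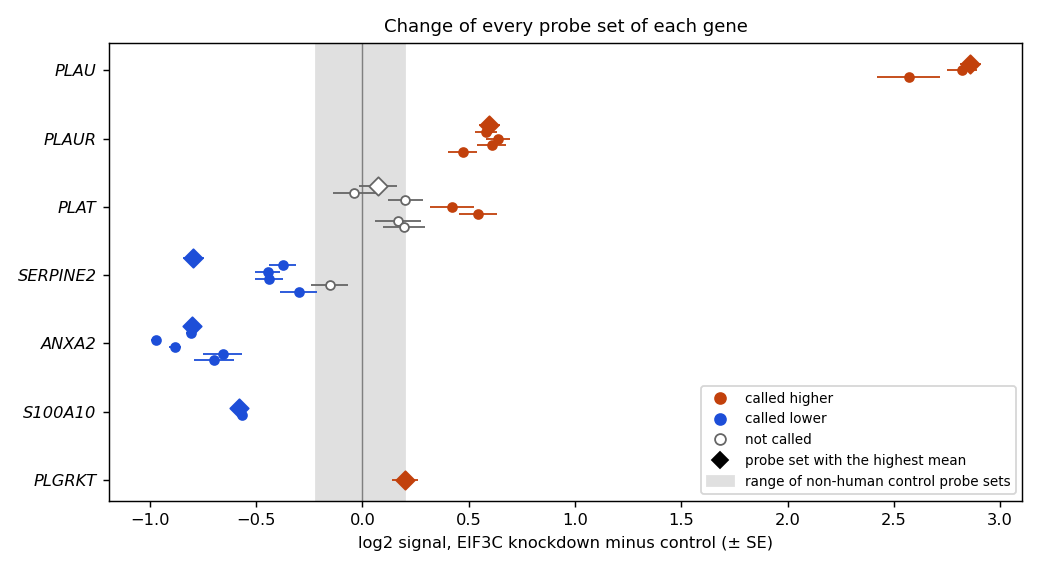
Difference in log2 signal, EIF3C knockdown minus control, with its SE, for each of the 30 probe sets; diamonds are the probe sets with the highest mean, filled symbols were called in the fit over all human probe sets, and the grey band is the range of the non-human control probe sets. The PLAU, PLAUR, ANXA2 and S100A10 probe sets each lie on 1 side of the band, and those of PLAT and SERPINE2 spread into it.

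Over the 30 probe sets, 11 were called higher, 13 lower and 6 neither, where 48.2% of 49293 human probe sets were called in the same fit. No gene had probe sets called in opposite directions. Groups did not overlap on 27 of the 30. The matching share of all human probe sets is not given here, so this count is a description only. Among the 13599 tested genes, groups did not overlap for 70.3%, but that share counts genes and not probe sets. The 30 probe sets belong to only 7 genes, and probe sets of the same gene are not independent.

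**Figure D3:**
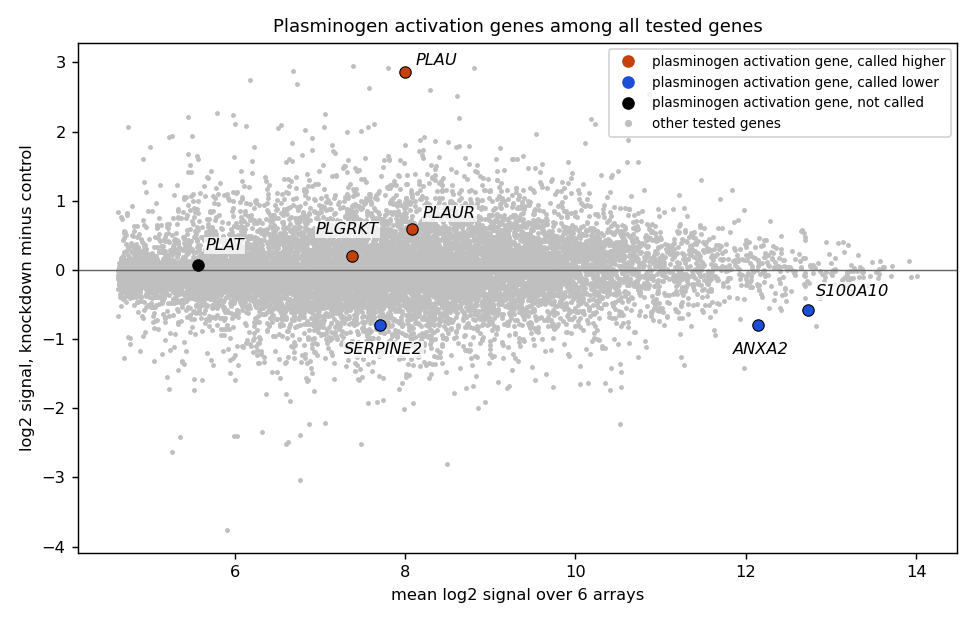
Difference in log2 signal, EIF3C knockdown minus control, against the mean log2 signal over the 6 arrays for all 13599 tested genes (grey), with the 7 plasminogen activation genes in colour. PLAU, at 2.86, stands among the highest points, and ANXA2 and S100A10 are bright genes below 0.

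The genes whose profile was most like that of PLAU were AXL, IL6 and CD163L1. Likeness was the root mean square distance over the 6 arrays between log2 signals, each set relative to the gene's own control mean, searched over 13299 other tested genes. The distances were 0.082 for AXL, a receptor tyrosine kinase, 0.082 for the cytokine IL6, and 0.093 for CD163L1, a scavenger receptor family gene. Their differences were 2.92, 2.92 and 2.95. With 2 groups of 3 arrays, the measure mostly reflects a like size of change.

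The other genes of plasminogen activation were taken from lists fixed by role. Among plasminogen and the proteases that activate it or pro-urokinase, 6 of 9 passed the filter on low values, and PLG itself did not. Of the 6, 3 fell and 0 rose, where 66.5% of all genes were called, with a median of -0.15 against -0.03 for all genes. With quantile normalization 4 of the list were called lower, so the count on so short a list is given as a description. ST14, or matriptase, averaged 8.09 ± 0.01 in knockdown and 9.15 ± 0.08 in control (SD, n = 3 each), a difference of -1.06 (limma, adjusted p = 9.38e-13). The other ST14 probe set differed by -0.65, and the mean of both by -0.86. CTSB, a lysosomal protease that can activate pro-urokinase, fell by 0.46 (log2 difference of -0.73 for the mean of its 4 probe sets), and HPN, or hepsin, by 0.24. F12, CTSL and KLK4 stood at 0.09, -0.05 and 0.02 and were not called.

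Of the other inhibitors of plasminogen activators or plasmin, 4 of 9 were tested, and 2 rose and 2 fell, where 66.5% of all genes were called. SERPINI1, or neuroserpin, an inhibitor of tissue plasminogen activator, had 6.21, 6.52 and 6.30 in knockdown, against 5.04, 5.08 and 4.90 in control, a rise of 1.34 (limma, adjusted p = 6.6e-10). SERPING1, the C1 inhibitor, had 5.35, 5.39 and 5.31 in knockdown, against 6.81, 6.85 and 6.51 in control, a fall with a difference of -1.37 (limma, adjusted p = 2.83e-10). The groups overlapped for neither gene. SERPINF2, the plasmin inhibitor alpha-2-antiplasmin, rose by 0.28, and the broad protease trap A2M fell by 0.36.

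Among partners and clearance receptors of the urokinase receptor, 14 of 16 were tested, and 4 rose and 6 fell, with a median of -0.03. The 71.4% called is near the 66.5% of all genes. VLDLR, which takes up urokinase in complex with its inhibitors, averaged 6.12 in knockdown and 6.94 in control and fell by 0.82 (limma, adjusted p = 8.16e-09). ITGA3, an integrin chain that pairs with the urokinase receptor, rose by 0.63 (adjusted p = 2.24e-10). MRC2, a collagen uptake receptor that joins the urokinase and receptor complex, rose by 0.55 on its chosen probe set, and its other 3 probe sets were not called. The mean of its probe sets gave 0.13. CAV1, or caveolin, rose by 0.34. The integrin chain ITGB1 was called higher at 0.04 (limma, adjusted p = 0.0449), inside the range of the non-human control probe sets, and 3 genes of the list rather than 4 were called higher under several alternatives, the replicate block and array weights among them. The other falls were in IGF2R, by 0.53, the integrin chains ITGB5, by 0.47, ITGA5, by 0.43, and ITGAV, by 0.38, and the clearance receptor LRP1, by 0.22. EGFR, a signalling partner, stood at 0.0036 and was not called.

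Other proteins that can bind plasminogen at the cell surface numbered 3, and all 3 were called higher, with a median of 0.26. With 32.4% of all genes called higher, a count on so short a list is given as a description. ENO1, a glycolytic enzyme found also on the surface of tumour cells, averaged 12.66 in knockdown and 12.16 in control and rose by 0.49 (limma, adjusted p = 1.7e-13). KRT8 rose by 0.26 on its chosen probe set, with 8 of 8 probe sets called higher. HMGB1 stood at 0.08, but 4 of its 7 probe sets were called lower, and the mean of its probe sets was -0.27.

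Other annexins and S100 partners included 10 genes called lower and 3 called higher of 13 tested, with a median of -0.52, where 34.1% of all genes were called lower and 32.4% higher, at a median of -0.03. AHNAK, a giant scaffold that binds the annexin A2 heterotetramer, averaged 10.30 ± 0.03 in knockdown and 11.33 ± 0.05 in control (SD, n = 3 each), a difference of -1.03 (limma, adjusted p = 1.25e-14). Its other probe set fell by 0.23, and the mean of both by 0.63. ANXA11 fell by 0.69 and ANXA5 by 0.61, with all 8 and all 6 of their probe sets called lower. The members that rose were ANXA3, by 0.45, ANXA7, by 0.40, and ANXA1, by 0.08. S100A4, S100A6 and S100A11, further small calcium-binding proteins, fell by 0.52, 0.24 and 0.46.

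Of substrates of plasmin or urokinase, 8 of 16 were tested, and 2 rose and 4 fell, with a median of -0.11. The 6 called of 8 are near the 66.5% of all genes, and 2 rather than 4 genes were called lower without knockdown replicate 3 or with the lowest 50% of genes left out. FN1, or fibronectin, fell by 0.48, and its 8 probe sets ranged from -1.06 to -0.02. LAMB3, LTBP1 and MMP9 were called lower, at -0.19, -0.17 and -0.23, the first pair inside the range of the non-human control probe sets and MMP9 at an adjusted p of 0.0461 (limma). TGFB1, whose latent form plasmin can release, rose by 0.36. TGFB2 rose by 0.83 on its chosen probe set, while its other probe set was called lower, at -0.34. The fibrinogen genes FGA, FGB and FGG did not pass the filter.

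Of 17 transcription factors known to act at PLAU or PLAUR, 10 were called higher and 3 lower, with a median of 0.13. The 76.5% called is near the 66.5% of all genes, but among all genes 32.4% were called higher and 34.1% lower. At least 2-fold rises were seen for 4 of the factors and for 353 of the 13599 genes. FOSL1, or FRA-1, an AP-1 subunit, had 9.77, 9.69 and 9.75 in knockdown, against 7.66, 7.47 and 7.49 in control, a rise of 2.19 (limma, adjusted p = 7.98e-16). Its 6 probe sets ranged from 0.52 to 2.19 with a mean of 1.46, and all were called higher. ETV5 and ETV4, factors of the PEA3 group of the ETS family, rose by 1.23 and 1.14 (limma, adjusted p = 2.88e-13 and 1.41e-10). FOS rose by 1.11 and ETS1 by 0.81, while SP1 fell by 0.44. RELA, NFKB1, FOSB and SP3 were not called. The part of these factors in the rise of PLAU and PLAUR was not tested.

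Of 4 RNA-binding proteins known at PLAU, PLAUR or SERPINB2 transcripts, 3 were called higher and 1 lower, with a median of 0.18, where 66.5% of all genes were called. HNRNPC rose by 0.43 (limma, adjusted p = 1.91e-12), with 6 of 6 probe sets higher. ELAVL1, or HuR, stood at 0.21, but 2 of its 5 probe sets were called lower. ZFP36, or tristetraprolin, stood at 0.16, and PGK1 at -0.11, both within the range of the non-human control probe sets.

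**Figure D4:**
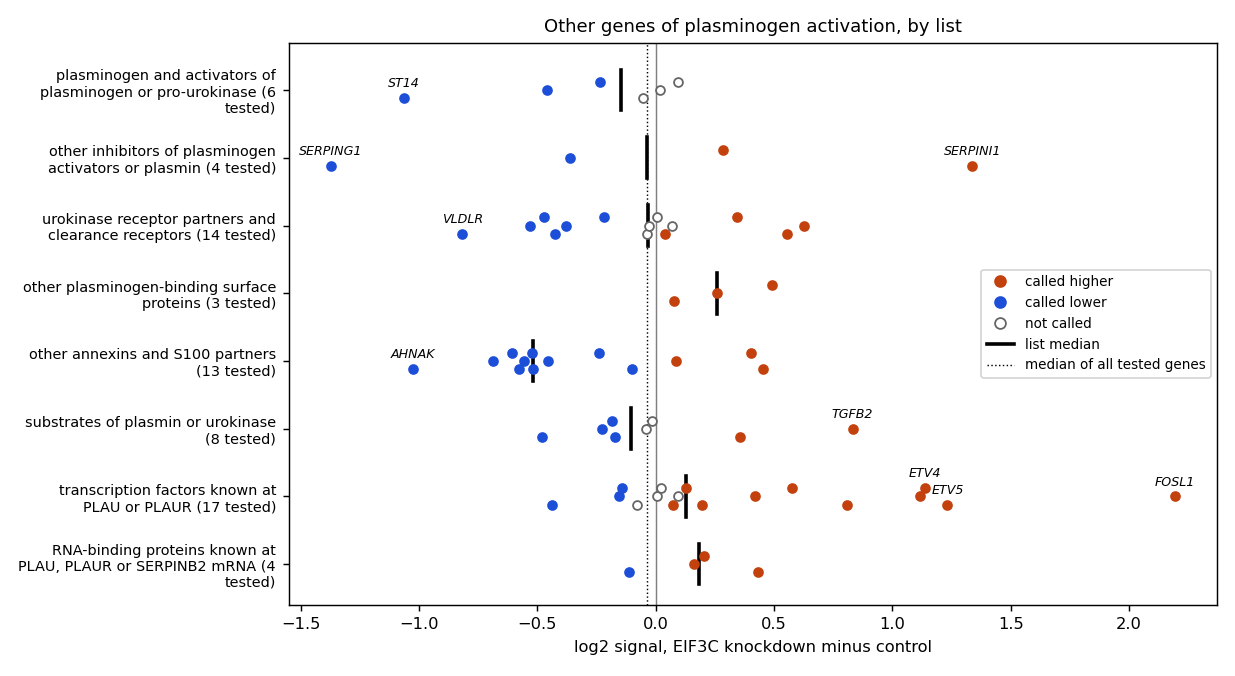
Difference in log2 signal, EIF3C knockdown minus control, for each tested gene of 8 lists of other plasminogen activation genes; filled points were called, thick bars are list medians and the dotted line is the median of all tested genes. The annexin and S100 list has most of its points below 0, at a median of -0.52, and FOSL1 stands furthest right, at 2.19.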

How the data were processed

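The values were log2 signals deposited by the authors, 1 per probe set and array, for 49395 probe sets. MAS5 is named, per the submitters' processing notes; its version, background correction and logarithm were not given in the sources used here. Values of 1.95 to 14.1 were taken as log2. The arrays have near-equal medians and were not normalized further, so a change shared by all genes cannot be seen. Precision is limited by the number of arrays. By the annotation of the platform, 44988 human probe sets carried 1 gene symbol, 1832 several and 2473 none. Of the first, 44961 matched a RefSeq gene table by Entrez ID, and 0 symbols changed.

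Each gene took its probe set with the highest mean, and the lowest 25% of genes by mean were left out. Knockdown was compared with control with limma 3.58.1 (R 4.3.3; lmFit, eBayes with an intensity trend) and Benjamini-Hochberg adjustment at 0.05. Further probe sets and EIF3C came from a fit over all 49293 human probe sets. Permutation tests used SciPy 1.17.1. Simulated data had 200 of 13599 genes changed, in 10 draws. The test recovered 50.8% of log2 changes of 0.25 and 99.6% of changes of 1, and 3.57% of its calls were false. In the real arrays 66.5% of genes were called, and the simulated noise was only the spread among arrays of a group. Recovery and false calls in the real arrays may therefore differ.

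The genes and lists were chosen with earlier results of these data known. In each list the 3 called genes with the largest change were named; further names (F12, CTSL, KLK4, EGFR, the other annexins and S100 genes, FOS, ETS1, SP1, PGK1, the other receptor partners, markers and others given with a value) were added after their values were seen. Alternatives were other filters, normalizations, probe set rules, variance models, weights per array, a replicate block, and leaving out any array.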

Additional observations from a re-analysis of the deposited data

How the results depend on the processing

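Of 688 recomputed values, 680 kept their direction and their side of the threshold or, for counts of calls, stayed within 1.5 times. The count of called plasminogen activation genes was 6 in most settings, 7 when probe sets of a gene were averaged, which added PLAT, and 5 to 6 with 1 array left out. Over all genes, leaving out 1 array gave 8457 to 8881 calls, against 9037 with every array. With any array left out, all 5 EIF3C probe sets and 22 to 25 of the 30 plasminogen activation probe sets were called. PLAU minus PLAUR ranged from 2.22 to 2.31 and ANXA2 minus S100A10 from -0.24 to -0.20 with 1 array left out. PLAT ranged from -0.0065, without control replicate 2, to 0.15, without control replicate 3, and HMGB1 turned to -0.27 with the mean of its probe sets; HMGB1 was also not called without the intensity trend (adjusted p = 0.089). ELAVL1 was not called with the mean of its probe sets (adjusted p = 0.588), nor ZFP36 with quantile normalization (adjusted p = 0.0658). With the lowest 50% of genes left out, 0 of the other inhibitors were tested.

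Whether the replicate numbers pair the samples was not settled. Deviations from the group means correlated at 0.074, 0.105 and 0.167 for equal numbers, and from -0.133 to 0.056 for unequal numbers. Each sample thus correlated best with its own number, though weakly. With the replicate number as a block, 6 plasminogen activation genes and 9307 genes in all were called, against 6 and 9037 without it. Dim probe sets, such as those of PLAT, limit what can be said of their direction.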

Other observations

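The genes beside PLAU on its chromosome differed in both directions. Of the 3 tested genes on either side, CHCHD1, ZSWIM8, CAMK2G, VCL, AP3M1 and ADK, 3 were called higher and 3 lower, with differences from -1.11 to 0.80 on the log2 scale. Of the 6 tested genes beside ANXA2, 4 were called higher and 1 lower, from -0.19 to 1.10. Among all tested genes 32.4% were called higher and 34.1% lower, so these counts on 6 genes are given as a description. S100A10 lies near S100A11, and both fell, while the median of the 6 tested genes beside S100A10 was -0.04. These neighbours were looked up after the data were seen, in the RefSeq gene order.

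Probe sets named for 3 annexin A2 pseudogenes were all called lower. ANXA2P2 differed by -0.71, ANXA2P3 by -0.46 and ANXA2P1 by -0.26, the last 2 on dim probe sets.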
